A study of Mus musculus with 14 samples.

Results

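The 37 genes described here encode the enzymes that add acetyl groups to histones and remove them, bromodomain proteins that bind acetylated lysine, and the enzymes that place or oxidise methyl groups on cytosine in DNA. They were chosen by gene name, with earlier results of these data known, and make up 37 of the 22048 protein-coding genes counted. By role they are 4 class I, 4 class IIa, 2 class IIb and 1 class IV histone deacetylases, 6 sirtuins, 9 acetyltransferases, 6 bromodomain proteins, 2 DNA methyltransferases and 3 TET dioxygenases.

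Acetylation of histone tails loosens chromatin and marks active promoters and enhancers, and bromodomain proteins carry that mark to the transcription machinery. TET enzymes oxidise 5-methylcytosine as a step towards its removal, while DNMT3A and DNMT3B methylate cytosine de novo. In CD4+ T cells these systems are known for setting cytokine genes open or silent as naive cells become effector cells, and the locus of interferon-gamma (Ifng) is a classic case.

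RNA sequencing covered 14 libraries of CD4+ T cells from spleen and peripheral lymph nodes of C57BL/6 mice carrying an IFN-g-YFP reporter, an allele shared by all groups. Naive cells, sorted as CD4+ CD44- CD62L+ and not cultured, gave 3 libraries. The other groups began as enriched CD4+ T cells, not as sorted naive cells, and spent 4 days in Th1 culture. Plates were coated with 1 µg/ml each of anti-CD3 and anti-CD28, and the medium held 10 ng/ml each of IL-2 and IL-12 with 10 µg/ml anti-IL4. It also held 1 µM of SGC0946, an inhibitor of the histone H3 lysine 79 methyltransferase DOT1L, or of SGC0649, its inactive control compound. Cells positive (YFPpos) or negative (YFPneg) for the reporter were then sorted. This gave YFPneg SGC0649 (n = 2), YFPneg SGC0946 (n = 3), YFPpos SGC0649 (n = 3) and YFPpos SGC0946 (n = 3). Libraries carry the numbers 61 to 63 with SGC0649 and 91 to 93 with SGC0946, and number 63 of the YFPneg sort was not analysed here. A Th1 culture without either compound was not analysed here, so a difference between cultured and naive cells holds culture, starting population and compound together.

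Total counts ran from 14486577 to 31614057 per library. Levels are given as CPM, counts relative to library size after scaling by TMM factors. Ifng stood at 532 to 929 CPM in the YFPpos libraries, at 25.4 to 114 in the YFPneg libraries and at 0 to 0.187 in naive libraries. Cd4 was at 501 to 1052 CPM in every library, and the 7 CD4 T cell markers summed to 2859 to 4663 CPM. The sums of 6 B cell markers reached at most 3.16 CPM and those of 5 NK cell markers at most 13.3. The sum of 7 rows of myeloid markers was 12.2 to 13.4 CPM in naive, 4.16 to 5.84 in SGC0649 and 4.32 to 9.02 in SGC0946 libraries. That of the CD8 T cell markers Cd8a and Cd8b1 was 16.1 to 19.3 CPM in naive, 6.50 to 9.51 in YFPneg SGC0649, 4.76 to 6.40 in YFPpos SGC0649, 12.2 to 19.7 in YFPneg SGC0946 and 5.82 to 6.63 in YFPpos SGC0946 libraries. Cd8a alone reached at most 2.44 CPM. Both sums were lower in the SGC0649 than in the naive libraries, and their part in the results was not tested. The share of unmapped reads was 7.40% to 8.66% in naive, 6.44% to 8.35% in YFPpos SGC0649 and 3.44% to 4.41% in YFPneg SGC0649 libraries. It was 3.14% to 4.62% in YFPneg SGC0946 libraries. In YFPpos SGC0946 it was 3.61% in library 92, against 7.58% in library 91 and 8.12% in library 93. Its part in the differences between groups below was not tested. In bulk RNA, fewer cells of a type and less RNA per cell cannot be told apart.

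Among the 37 genes, 36 passed the filter on low counts, as 12343 genes did in all, and were tested. Hdac9, a class IIa deacetylase best known from muscle and regulatory T cells, did not pass, with 0 to 9 counts in every library. The next lowest was Hdac11, the sole class IV enzyme, with 40 to 52 counts in naive libraries and 0 to 21 in cultured ones. A difference is called when the adjusted p of edgeR's quasi-likelihood test is under 0.05 over all 12343 genes tested.

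The 250 bases before an annotated start are shown for 4 genes, as examples of the patterns described below. With SGC0946, Tet1 was called higher and Dnmt3a lower in both sorts. Tet3 and Crebbp were lower in both cultured sorts than in naive cells, and lower again in YFPpos cells. The sequences are from RefSeq (GRCm38.p6), run 5′ to 3′ on the gene's strand, and carry in capitals the GC box GGGCGG, the CCAAT box CCAAT and the ETS motif CCGGAAG wherever a script found them on either strand. Adjoining or overlapping matches run together. The Dnmt3a window belongs to the most upstream of 3 listed starts. All 4 windows lie inside the genes as annotated in GENCODE M21. On the minus strand the annotated Tet1 gene begins at 62908996 and the Tet3 gene at 83459084, upstream of the windows shown. For none of the 4 genes do gene counts say which start was used.
Tet1, chr10:62887325-62887574, minus strand: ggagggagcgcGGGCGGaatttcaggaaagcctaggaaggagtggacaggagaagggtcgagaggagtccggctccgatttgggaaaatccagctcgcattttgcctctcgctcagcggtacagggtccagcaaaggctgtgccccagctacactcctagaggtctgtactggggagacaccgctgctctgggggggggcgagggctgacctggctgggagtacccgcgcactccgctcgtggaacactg
Dnmt3a, chr12:3806730-3806979, plus strand: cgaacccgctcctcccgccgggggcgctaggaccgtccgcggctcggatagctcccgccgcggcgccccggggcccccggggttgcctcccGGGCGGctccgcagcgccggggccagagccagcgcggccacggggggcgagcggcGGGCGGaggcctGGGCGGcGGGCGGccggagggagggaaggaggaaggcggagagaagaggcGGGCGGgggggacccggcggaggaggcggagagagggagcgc
Tet3, chr6:83441679-83441928, minus strand: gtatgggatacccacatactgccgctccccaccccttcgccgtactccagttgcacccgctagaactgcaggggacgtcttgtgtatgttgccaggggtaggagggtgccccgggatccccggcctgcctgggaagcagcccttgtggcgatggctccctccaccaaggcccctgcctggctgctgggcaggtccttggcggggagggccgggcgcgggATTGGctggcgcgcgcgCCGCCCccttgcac
Crebbp, chr16:4213405-4213654, minus strand: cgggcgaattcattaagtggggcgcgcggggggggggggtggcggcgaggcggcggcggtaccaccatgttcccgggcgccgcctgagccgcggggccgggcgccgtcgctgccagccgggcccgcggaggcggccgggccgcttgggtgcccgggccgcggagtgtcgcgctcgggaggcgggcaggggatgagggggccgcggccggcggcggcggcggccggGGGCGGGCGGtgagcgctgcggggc
The Dnmt3a window held 5 GC boxes and 38 CpG dinucleotides, and the Crebbp window 2 overlapping GC boxes and 44 CpG. The Tet1 window held 1 GC box and 15 CpG. The Tet3 window held 1 GC box, 1 CCAAT box and 17 CpG. RefSeq listed 47 starts for 32 of the 37 genes. A GC box lay in 32 of these 47 windows and in 32.7% of all 32841 windows of the same length. The CCAAT box lay in 14 of 47 against 33.9%, and the ETS motif in 6 of 47 against 6.91%. The RUNX motif TGTGGTT lay in 2 of 47 windows and the TATA box TATAAA in 2 of 47, against 4.40% and 12.4% of all. The median number of CpG was 18 in the windows of these genes and 6 in all windows. These matches describe letters only, and windows of the same gene can overlap.

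Levels per length spanned a wide range. In naive cells the highest was Brd2, a BET bromodomain protein, at 69.2 CPM per kilobase of exon. It was followed by the acetyltransferase gene Kat6a (46.6), the nuclear sirtuin gene Sirt7 (45.4) and the class IIa deacetylase gene Hdac7 (42.3). The lowest tested genes were those of the mitochondrial sirtuins, Sirt5 (1.41) and Sirt3 (0.732), and Hdac11 (0.689). In YFPpos SGC0649 cells Brd2 was again first at 52.4 CPM per kilobase, but Hdac7 (35.8) and Hdac2 (31.7) came next, and Kat6a stood at 17.6.

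**Figure D1:**
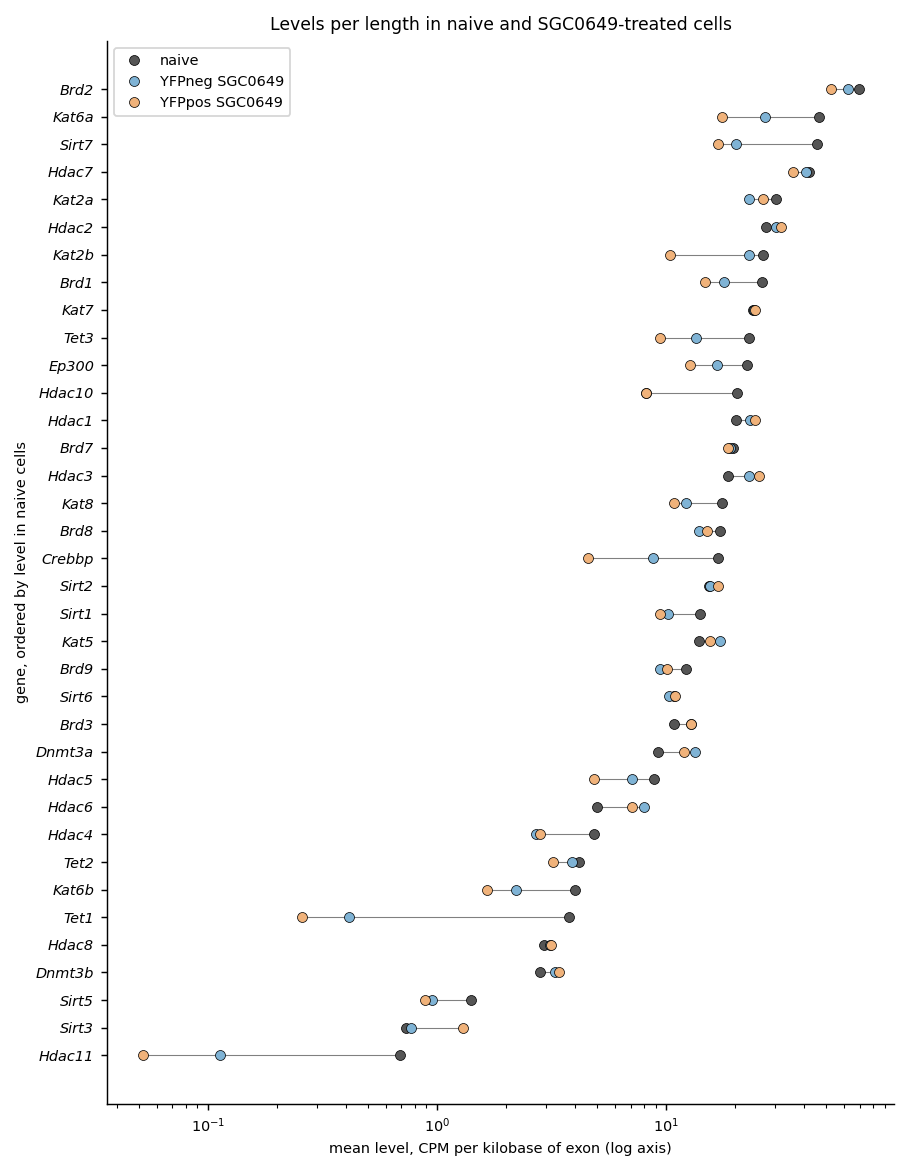
Mean levels per length of the 36 tested genes, in CPM per kilobase of exon on a log axis, with genes ordered by their level in naive cells. Points are group means of naive (n = 3), YFPneg SGC0649 (n = 2) and YFPpos SGC0649 cells (n = 3), joined by a grey line. Tet1 falls from 3.78 in naive to 0.258 in YFPpos SGC0649 cells, while Kat7 keeps its place at 24.0 to 24.4.

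The first question was how these genes differed between naive cells and cells cultured with the control compound. In YFPpos SGC0649 cells 20 of the 36 tested genes were lower than in naive cells and 8 were higher. Over all genes tested 79.8% were called in this comparison, 42.6% as higher and 37.3% as lower. In YFPneg SGC0649 cells 17 were lower and 6 higher, where 69.0% of all genes were called, 36.4% as higher and 32.6% as lower. A call by itself was therefore common, and the direction of the calls leaned down among these genes. Their median log2 fold change was -0.33 in YFPpos cells (0.09 over all genes) and -0.25 in YFPneg cells (0.03 over all genes). Both comparisons share the naive libraries.

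The libraries of 17 genes stood apart, with every naive library above every one of the 11 cultured libraries, where 29.3% of all tested genes did so. They comprised Tet1 and Tet3, the acetyltransferase genes Crebbp, Ep300, Kat2a, Kat6a, Kat6b and Kat8, the bromodomain genes Brd1, Brd2, Brd8 and Brd9, the deacetylase genes Hdac4, Hdac10 and Hdac11, and the sirtuin genes Sirt1 and Sirt7. In 4 genes, Hdac1, Hdac3, Hdac6 and Kat5, every naive library was below every cultured one, where 30.0% of all tested genes were.

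Tet1, one of 3 TET dioxygenase genes (chromosome 10, 62804570 to 62908996, GRCm38), had the largest fold among them. Its naive libraries were at 55.0, 61.5 and 59.0 CPM. YFPneg SGC0649 libraries were at 6.71 and 6.01 CPM, and YFPpos SGC0649 libraries at 4.12, 4.44 and 3.42. No cultured library came near the naive ones. The log2 fold change from naive was -3.87 (SE 0.18, adjusted p = 2.3e-12) in YFPpos and -3.20 (SE 0.21, adjusted p = 3.7e-10) in YFPneg cells. The lowest Tet1 count in a library was 79 reads.

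Tet3 (chromosome 6, 83362373 to 83459084) encodes the TET enzyme with the highest level per length here in every group. It was at 374, 395 and 388 CPM in naive, at 228 and 224 in YFPneg SGC0649 and at 157, 156 and 157 in YFPpos SGC0649 libraries. The groups formed 3 separate steps. Its log2 fold change from naive was -1.30 (SE 0.06, adjusted p = 1.0e-12) in YFPpos and -0.77 (SE 0.07, adjusted p = 1.3e-08) in YFPneg cells. Tet2, which encodes the TET enzyme often mutated in human blood cancers, moved less. It was at 67.7 to 73.9 CPM in naive, at 60.3 and 70.4 in YFPneg SGC0649 and at 53.6 to 55.2 in YFPpos SGC0649 libraries. It fell in YFPpos cells by 0.38 (SE 0.08, adjusted p = 0.00048), and its value in YFPneg cells, -0.11 (SE 0.09), was not called. As ratios of levels per length, in which library scaling cancels, Tet1 to Tet3 went from 0.164 ± 0.00466 (SD, n = 3) in naive to 0.0275 ± 0.00367 (n = 3) in YFPpos SGC0649 cells. Tet2 to Tet3 went the other way, from 0.181 ± 0.00369 to 0.343 ± 0.00537.

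The de novo methyltransferase gene Dnmt3a (chromosome 12, 3806007 to 3914443) was higher after culture with the control compound. Naive libraries were at 150, 157 and 150 CPM, YFPneg SGC0649 libraries at 221 and 224, and YFPpos SGC0649 libraries at 189, 192 and 217. All 5 cultured libraries were above all naive ones. It rose by 0.54 (SE 0.06, adjusted p = 7.3e-07) in YFPneg and by 0.39 (SE 0.06, adjusted p = 8.3e-06) in YFPpos cells on the log2 scale. Dnmt3b, its lowly expressed relative, was at 13.3 to 14.9 CPM in naive libraries and 13.3 to 22.2 in these cultured ones, and was not called in either comparison.

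**Figure D2:**
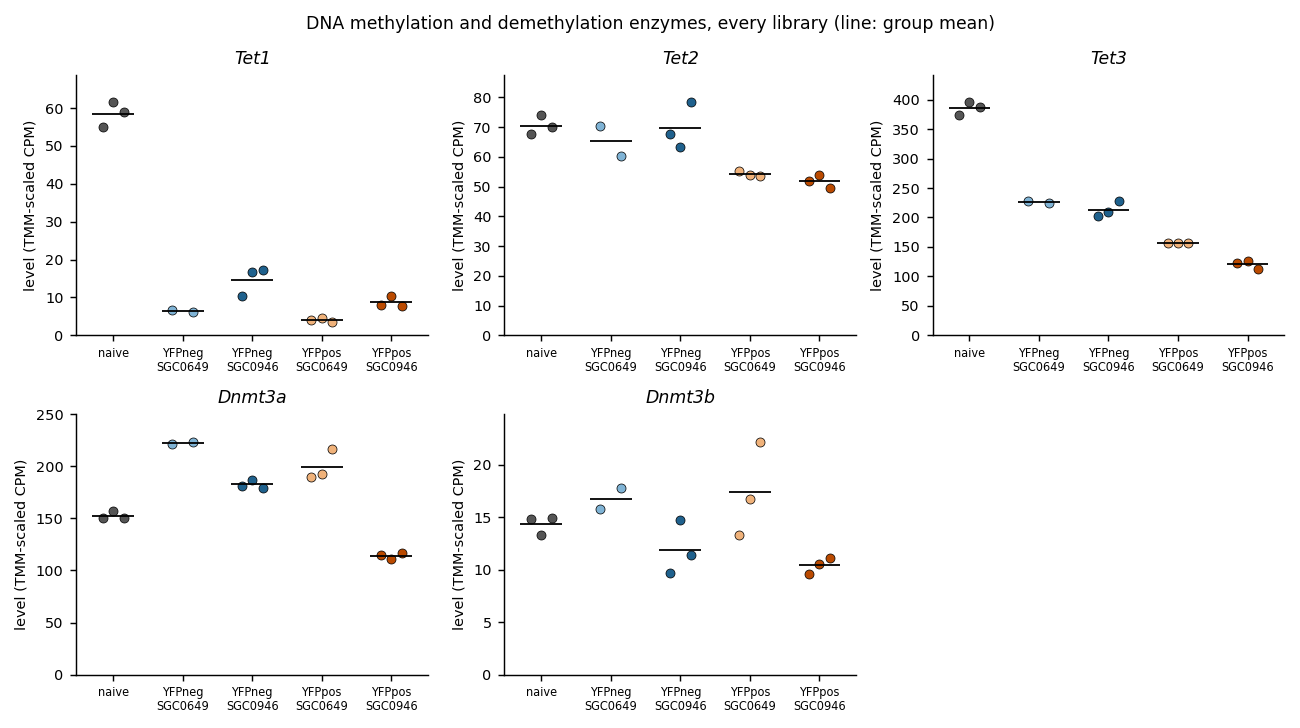
Levels of the TET and de novo DNA methyltransferase genes in every library, in TMM-scaled CPM on linear axes from 0. Each point is a library and each line a group mean. Tet1 and Tet3 are highest in naive cells. Dnmt3a is lowest in YFPpos SGC0946 cells, at 111 to 117 CPM.

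Among acetyltransferases, Crebbp (chromosome 16, 4081328 to 4213997), which encodes the coactivator CBP, had the smallest p of the 36 genes against naive cells in YFPpos SGC0649 cells. Naive libraries were at 232, 235 and 217 CPM, YFPneg SGC0649 libraries at 123 and 114, and YFPpos SGC0649 libraries at 61.0, 60.8 and 62.8. The YFPpos mean was 27.03% and the YFPneg mean 52.05% of the naive mean. The log2 fold changes were -1.89 (SE 0.06, adjusted p = 6.1e-15) and -0.94 (SE 0.06, adjusted p = 6.9e-10). Ep300, the gene of its close relative p300, fell less. It was at 312 to 339 CPM in naive, 219 and 255 in YFPneg SGC0649 and 167 to 194 in YFPpos SGC0649 libraries, with log2 fold changes of -0.83 (SE 0.08) in YFPpos and -0.44 (SE 0.09) in YFPneg cells. The ratio of Crebbp to Ep300 per length was 0.745 ± 0.0261 (SD, n = 3) in naive, 0.529 ± 0.0270 (n = 2) in YFPneg SGC0649 and 0.360 ± 0.0339 (n = 3) in YFPpos SGC0649 cells. The libraries of these groups did not overlap in this ratio, which was chosen after its values were seen.

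Kat6a (chromosome 8, 22859535 to 22943259) encodes MOZ, an acetyltransferase of histone H3. It was at 425, 450 and 410 CPM in naive, 246 and 251 in YFPneg SGC0649 and 160, 162 and 161 in YFPpos SGC0649 libraries. As with Crebbp and Tet3, the YFPneg libraries lay between the others with no overlap. It fell by 1.41 (SE 0.07, adjusted p = 2.0e-12) in YFPpos and by 0.78 (SE 0.07, adjusted p = 5.3e-08) in YFPneg cells. Kat6b, the gene of its relative MORF, fell by 1.27 (SE 0.09) and 0.86 (SE 0.11). The ratio of Kat6a to Kat6b per length stayed at 11.6 ± 0.581 (SD, n = 3) in naive, 12.2 ± 0.882 (n = 2) in YFPneg SGC0649 and 10.7 ± 1.28 (n = 3) in YFPpos SGC0649 cells, differences smaller than or near the spread between libraries.

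The pair of GCN5-type enzymes was uneven. Kat2b (chromosome 17, 53566861 to 53672720), the gene of PCAF, was at 129, 133 and 123 CPM in naive, 123 and 101 in YFPneg SGC0649 and 51.1, 52.6 and 48.0 in YFPpos SGC0649 libraries. Its fall of 1.35 (SE 0.11, adjusted p = 5.4e-09) from naive was called in YFPpos cells, and its value of -0.20 (SE 0.12, adjusted p = 0.16) in YFPneg cells was not. Kat2a, the gene of GCN5, showed the opposite set of calls, at -0.39 (SE 0.10, adjusted p = 0.0024) in YFPneg and -0.18 (SE 0.09, adjusted p = 0.075) in YFPpos cells. The Kat2a call was lost without YFPneg SGC0649 library 61 (adjusted p = 0.081), and Kat2a was not called between the sorts.

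Kat8, the gene of MOF, which acetylates histone H4 at lysine 16, fell by 0.70 (SE 0.09) in YFPpos and 0.53 (SE 0.10) in YFPneg cells. Kat5, the gene of TIP60, was the single acetyltransferase gene called higher, at 0.17 (SE 0.07, adjusted p = 0.038) in YFPpos and 0.31 (SE 0.08, adjusted p = 0.0017) in YFPneg cells. The YFPpos call of Kat5 was lost when naive library 1 or 2 or YFPpos SGC0649 library 61 or 62 was left out, with an adjusted p of up to 0.13. Kat7, the gene of HBO1, was at 130 to 136 CPM in naive and 130 to 137 in the SGC0649 libraries. It was the one tested gene of the 36 with no call in any of the 7 comparisons.

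**Figure D3:**
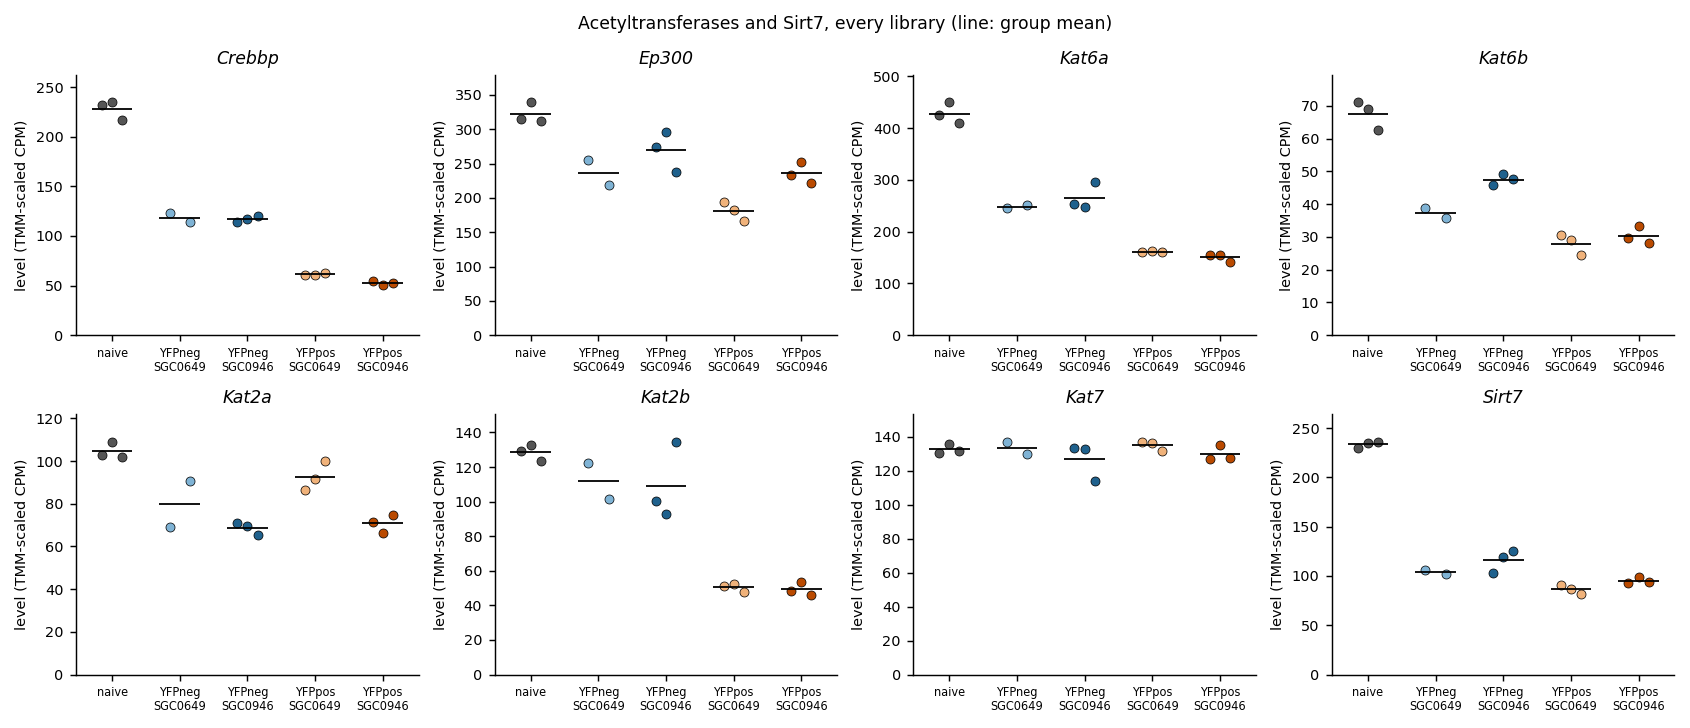
Levels of 7 acetyltransferase genes and Sirt7 in every library, in TMM-scaled CPM on linear axes from 0. Points are libraries and lines group means. Crebbp and Kat6a step down from naive through YFPneg to YFPpos cells, Kat2b is low in YFPpos cells, and Kat7 lies at 114 to 137 CPM in every group.

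The class I deacetylase genes encode the catalytic subunits of nuclear corepressor complexes, apart from HDAC8. In YFPpos SGC0649 cells 3 of 4 rose and none fell, where 42.6% of all genes were called higher and 37.3% lower. Hdac1 rose by 0.28 (SE 0.06), Hdac2 by 0.22 (SE 0.08) and Hdac3 by 0.44 (SE 0.06). Hdac8 was at 0.10 (SE 0.12) and was not called. In YFPneg cells Hdac1 rose by 0.21 (SE 0.07) and Hdac3 by 0.31 (SE 0.06). The Hdac2 call was lost without naive library 3 or YFPpos SGC0649 library 63 (adjusted p up to 0.11). The Hdac1 call in YFPneg cells was lost without naive library 1 or YFPneg SGC0649 library 61 (adjusted p up to 0.16).

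Class IIa enzymes shuttle between nucleus and cytoplasm and act mainly as scaffolds for corepressors. Hdac4 was at 75.3, 77.7 and 76.0 CPM in naive, 38.6 and 47.3 in YFPneg SGC0649 and 46.5, 45.5 and 42.0 in YFPpos SGC0649 libraries, with no overlap between naive and cultured cells. It fell by 0.77 (SE 0.08) in YFPpos and 0.83 (SE 0.09) in YFPneg cells. Hdac5 fell by 0.86 (SE 0.14) in YFPpos cells and was at -0.32 (SE 0.15, adjusted p = 0.071) in YFPneg cells. Hdac7, the class IIa gene with the highest level here, ranged from 168 to 296 CPM over these groups and was not called.

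The class IIb genes went in opposite directions. Hdac6, the gene of a cytoplasmic deacetylase of tubulin, was at 28.6 to 30.2 CPM in naive and 38.5 to 49.98 in the SGC0649 libraries. It rose by 0.50 (SE 0.09) in YFPpos and 0.67 (SE 0.10) in YFPneg cells. Hdac10, the gene of a polyamine deacetylase, was at 66.3 to 71.3 CPM in naive and 25.3 to 30.5 in these cultured libraries, and fell by 1.33 (SE 0.14) and 1.32 (SE 0.16). Hdac11 was at 2.40 to 2.95 CPM in naive and 0 to 0.565 in these cultured libraries and was called lower in both, at counts too low for a close estimate of the fold.

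Of the sirtuins, the nuclear enzyme genes Sirt1 and Sirt7 were lower. Sirt7 (chromosome 11, 120618372 to 120625240) was at 230, 235 and 236 CPM in naive, 106 and 102 in YFPneg SGC0649 and 91.1, 87.0 and 81.5 in YFPpos SGC0649 libraries. It fell by 1.43 (SE 0.07, adjusted p = 2.2e-12) in YFPpos and by 1.17 (SE 0.08, adjusted p = 4.7e-10) in YFPneg cells. Its annotated exons share 178 bases with Mafg and Mir6936 on the same strand, a small part of 5148 exon bases. Sirt1 fell by 0.59 (SE 0.12) and 0.47 (SE 0.14), the latter lost without YFPneg SGC0649 library 62 (adjusted p = 0.065). Sirt3 was at 3.86 to 4.88 CPM in naive, 4.32 and 4.88 in YFPneg SGC0649 and 7.17 to 8.29 in YFPpos SGC0649 libraries. It rose by 0.82 (SE 0.28, adjusted p = 0.012) in YFPpos cells. Sirt5, the other mitochondrial one, fell by 0.67 (SE 0.23, adjusted p = 0.013) in YFPpos cells, a call lost without naive library 3 (adjusted p = 0.062). Sirt2 and Sirt6 were not called in either comparison.

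Bromodomain genes moved by small amounts. Brd1, whose protein is a scaffold of the HBO1 complex, was at 214 to 224 CPM in naive, 149 and 150 in YFPneg SGC0649 and 119 to 130 in YFPpos SGC0649 libraries. It fell by 0.83 (SE 0.05) and 0.55 (SE 0.06). The BET genes went in opposite directions: Brd2 fell by 0.40 (SE 0.05) in YFPpos cells while Brd3 rose by 0.24 (SE 0.06) there and by 0.25 (SE 0.07) in YFPneg cells. The fall of Brd2 in YFPneg cells, 0.15 (SE 0.06, adjusted p = 0.024), was lost without naive library 2 or YFPneg SGC0649 library 61, with an adjusted p of up to 0.21. This Brd2 call was also lost with no filter on low counts and with only the groups compared. Brd8 and Brd9, genes of subunits of the TIP60 and SWI/SNF complexes, fell by 0.19 to 0.38 in the 2 comparisons, and Brd7 was not called.

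**Figure D4:**
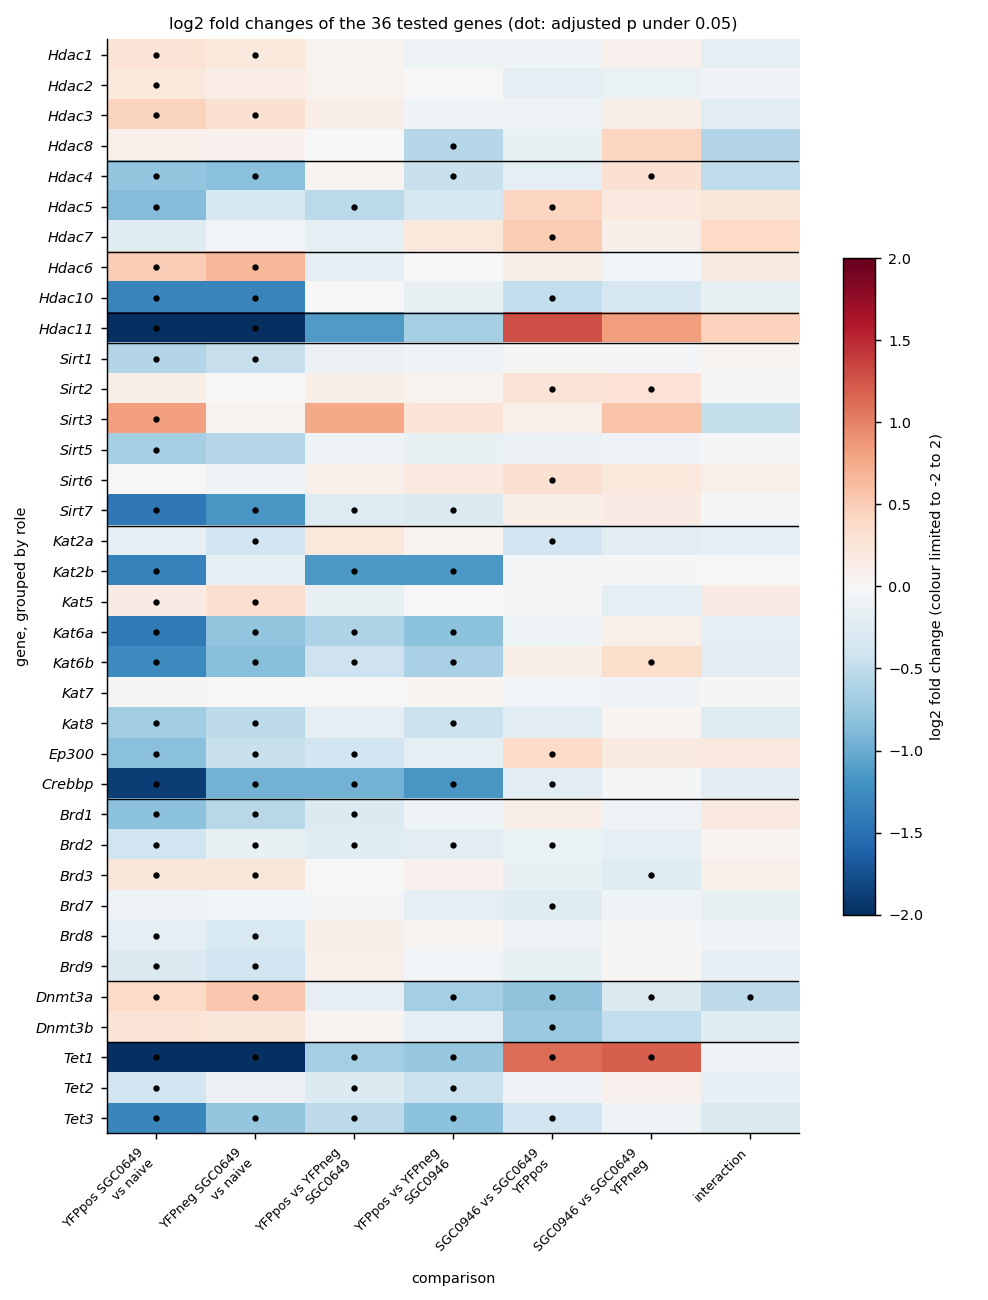
Log2 fold changes of the 36 tested genes in the 7 comparisons, with genes in rows by role (lines part the roles) and comparisons in columns. Red is higher and blue lower in the group named first, colours end at -2 and 2, and a dot marks an adjusted p under 0.05 by edgeR. The columns of YFPpos against YFPneg cells hold 12 and 13 dots, all on blue cells, and the last column holds 1, on Dnmt3a.

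The second question was how interferon-gamma reporter-positive cells differed from reporter-negative cells cultured with the same compound. With SGC0649, 12 of the 36 genes were lower in YFPpos cells and 0 were higher, where 45.2% of all genes were called, 23.9% as higher and 21.3% as lower. At an adjusted p under 0.05, edgeR with SGC0946 called 13 lower and 0 higher, where 54.7% were called, 26.9% as higher and 27.8% as lower. At an unadjusted p under 0.05, 3 were higher with SGC0649 (Hdac3, Sirt3 and Kat2a) and 0 with SGC0946. DESeq2 called 2 and limma-voom 1 higher with SGC0649, and both called 0 higher with SGC0946. The median log2 fold change was -0.13 with SGC0649 (0.04 over all genes) and -0.16 with SGC0946 (0.01 over all genes). Over both compounds together, every YFPpos library was below every YFPneg library for 7 genes, Crebbp, Kat2b, Kat6a, Kat6b, Sirt7, Tet2 and Tet3, where 17.8% of all tested genes were. The reverse held for 0 of the 36 and for 15.7% of all.

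Crebbp had the smallest p with each compound. With SGC0946 its YFPneg libraries were at 114, 117 and 120 CPM and its YFPpos libraries at 54.5, 50.4 and 52.8, far below them. The log2 fold change was -0.95 (SE 0.06, adjusted p = 4.7e-09) with SGC0649 and -1.16 (SE 0.06, adjusted p = 6.8e-11) with SGC0946. Kat2b with SGC0946 was at 100, 92.8 and 135 CPM in YFPneg and 48.4, 53.5 and 46.2 in YFPpos libraries. It fell by 1.15 (SE 0.12, adjusted p = 1.2e-06) with SGC0649 and by 1.14 (SE 0.11, adjusted p = 2.4e-07) with SGC0946. The ratio of Kat2b to Kat2a per length was 0.393 ± 0.0429 (SD, n = 3) in YFPpos SGC0649 cells against 1.03 ± 0.331 (n = 2) in YFPneg SGC0649 cells.

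Kat6a with SGC0946 was at 253, 247 and 296 CPM in YFPneg and 155, 155 and 142 in YFPpos libraries. It was lower in YFPpos cells by both compounds' values, at -0.62 (SE 0.07, adjusted p = 3.2e-06) with SGC0649 and -0.82 (SE 0.07, adjusted p = 2.4e-08) with SGC0946. Kat6b fell by 0.42 (SE 0.10) and 0.65 (SE 0.09). Among the TET genes, Tet3 fell by 0.53 (SE 0.06, adjusted p = 4.6e-06) with SGC0649 and by 0.82 (SE 0.06, adjusted p = 5.3e-09) with SGC0946. Its SGC0946 libraries were at 202, 209 and 228 CPM in YFPneg and 123, 126 and 113 in YFPpos cells. Tet1 fell by 0.67 (SE 0.22, adjusted p = 0.018) and 0.76 (SE 0.17, adjusted p = 0.0013), and Tet2 by 0.27 (SE 0.09, adjusted p = 0.025) and 0.43 (SE 0.08, adjusted p = 0.00033).

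Some of these falls were called with a single compound. Hdac5, Ep300 and Brd1 were called with SGC0649 alone, by 0.54 (SE 0.15), 0.39 (SE 0.09) and 0.28 (SE 0.06). With SGC0946 edgeR gave -0.32 (adjusted p = 0.053), -0.19 (adjusted p = 0.057) and -0.08 (adjusted p = 0.22) in turn. There Hdac5 passed the threshold under 7 and Ep300 under 5 of 13 alternatives, and Brd1 under 0. Hdac4, Hdac8, Kat8 and Dnmt3a were called with SGC0946 alone, by 0.44 (SE 0.08), 0.57 (SE 0.12), 0.44 (SE 0.09) and 0.68 (SE 0.06). With SGC0649 they were at 0.06, 0.01, -0.17 and -0.16 in turn. Dnmt3a was there just short of edgeR's threshold (adjusted p = 0.052). It passed under 5 of 12 alternatives, among them DESeq2, limma-voom and both replicate blocks. Of these 7, edgeR's interaction test described below called Dnmt3a and none of the other 6. The Dnmt3a call was lost with a block by library number, and DESeq2 and limma-voom also called Hdac4. With SGC0649, 5 calls were lost when 1 library was left out. They were Sirt7, Ep300, Tet1 and Tet2 without YFPneg SGC0649 library 61, Hdac5 without its library 62, Tet1 without YFPpos SGC0649 library 63 and Tet2 without YFPpos SGC0649 library 62. Tet1 was also lost by limma-voom, and both Tet1 and Tet2 with a block by library number. Their highest adjusted p was 0.075 for Sirt7, 0.073 for Ep300, 0.095 for Hdac5, 0.12 for Tet1 and 0.31 for Tet2. All 13 calls with SGC0946 were kept under every alternative run.

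The third question was what the DOT1L inhibitor changed within each sort, against its inactive control at the same 1 µM. In YFPpos cells 6 of the 36 genes were higher with SGC0946 and 8 lower, where 27.7% of all genes were called, 12.1% as higher and 15.7% as lower. In YFPneg cells 4 were higher and 2 lower, where 8.63% of all genes were called, 4.99% as higher and 3.64% as lower. The median log2 fold change of the 36 was -0.09 and -0.00 in turn, against -0.04 and 0.01 over all genes. Dot1l itself, whose enzyme the compound blocks, was at 213 to 229 CPM with SGC0649 and 170 to 183 with SGC0946 in YFPpos cells, a change of -0.32 (SE 0.07, adjusted p = 0.0020). In YFPneg cells its change of -0.20 (SE 0.07, adjusted p = 0.089) was not called.

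Tet1 was higher with the inhibitor in both sorts. In YFPpos cells its libraries were at 7.91, 10.3 and 7.76 CPM with SGC0946 against 4.12, 4.44 and 3.42 with SGC0649. In YFPneg cells they were at 10.3, 16.7 and 17.2 against 6.71 and 6.01. The compounds' libraries did not overlap in either sort, and all SGC0946 libraries stayed far below the naive 55.0. The log2 fold change was 1.11 (SE 0.19, adjusted p = 0.00045) in YFPpos and 1.20 (SE 0.21, adjusted p = 0.0029) in YFPneg cells. Both calls were kept under every alternative run, with values of 0.97 to 1.20 and 1.08 to 1.41. The YFPneg group means correspond to 10.9% of the naive mean with SGC0649 and 25.2% with SGC0946, and the YFPpos ones to 6.83% and 14.8%.

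Dnmt3a went down with the inhibitor. In YFPpos cells it was at 115, 111 and 117 CPM with SGC0946 against 189, 192 and 217 with SGC0649. In YFPneg cells it was at 181, 187 and 179 against 221 and 224. YFPpos SGC0946 was the one cultured group with every library below the naive libraries. The log2 fold change was -0.80 (SE 0.06, adjusted p = 1.4e-07) in YFPpos and -0.28 (SE 0.06, adjusted p = 0.013) in YFPneg cells. The YFPneg call was lost with only the groups compared, a fit that keeps every library of both groups. It was also lost without YFPneg SGC0649 library 62, the value then resting on 1 control library. Over the alternatives the YFPneg value lay between -0.30 and -0.27. Dnmt3b was at 9.56, 10.5 and 11.1 CPM against 13.3, 16.7 and 22.2 in YFPpos cells. It fell there by 0.74 (SE 0.17, adjusted p = 0.0049), and its value in YFPneg cells was -0.49 (SE 0.20, adjusted p = 0.12).

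Tet3 fell in YFPpos cells by 0.38 (SE 0.06, adjusted p = 0.00023), its SGC0946 libraries of 113 to 126 CPM lying below all of the SGC0649 ones at 156 and 157. In YFPneg cells its value was -0.09, with a 95% interval of -0.22 to 0.05. Tet2 was not called in either sort, with intervals of -0.24 to 0.11 in YFPpos and -0.10 to 0.29 in YFPneg cells. The ratio of Tet1 to Tet3 per length was 0.0773 ± 0.00964 (SD, n = 3) in YFPpos SGC0946 and 0.0742 ± 0.0169 (n = 3) in YFPneg SGC0946 cells. With SGC0649 it was 0.0275 ± 0.00367 (n = 3) and 0.0303 ± 0.00192 (n = 2).

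The CBP and p300 genes moved apart in YFPpos cells. Ep300 was at 234, 252 and 221 CPM with SGC0946 against 194, 182 and 167 with SGC0649, a rise of 0.38 (SE 0.08, adjusted p = 0.0032). Crebbp was at 54.5, 50.4 and 52.8 against 61.0, 60.8 and 62.8, a fall of 0.23 (SE 0.06, adjusted p = 0.0078) that was lost without YFPpos SGC0946 library 92 (adjusted p = 0.0504). Both sets of libraries were apart. The ratio of Crebbp to Ep300 per length was 0.236 ± 0.0223 (SD, n = 3) with SGC0946 and 0.360 ± 0.0339 (n = 3) with SGC0649. In YFPneg cells Crebbp was at -0.02 (95% interval -0.15 to 0.12) and Ep300 at 0.19 (-0.01 to 0.39), and neither was called.

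Kat2a fell in YFPpos cells by 0.39 (SE 0.09, adjusted p = 0.0039), from 86.3, 91.6 and 99.8 CPM with SGC0649 to 71.5, 66.1 and 75.0 with SGC0946. Its value in YFPneg cells was -0.22 (SE 0.10, adjusted p = 0.17). Kat6b was called in YFPneg cells alone, at 45.9, 49.1 and 47.6 CPM against 38.8 and 35.8, a rise of 0.35 (SE 0.10, adjusted p = 0.048). That call was lost without any single one of the 5 libraries compared, with an adjusted p of up to 0.26. The Kat6b call was also lost by limma-voom, with DESeq2 size factors and with only the groups compared. Kat2b and Kat6a, which differed between the sorts, were not called between the compounds, nor was Kat7. The 95% interval of Kat2b was -0.27 to 0.20 in YFPpos and -0.30 to 0.22 in YFPneg cells. That of Kat6a was -0.24 to 0.04 and -0.06 to 0.25, and that of Kat7 -0.19 to 0.07 and -0.22 to 0.07.

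Sirt2, the gene of a largely cytoplasmic sirtuin, was the other gene besides Tet1 called higher in both sorts. It was at 99.5, 105 and 99.1 CPM against 88.7, 81.1 and 84.8 in YFPpos cells, and at 96.8, 90.0 and 102 against 79.0 and 78.3 in YFPneg cells. The rises were 0.26 (SE 0.06, adjusted p = 0.0054) and 0.29 (SE 0.07, adjusted p = 0.018), and the compounds' libraries did not overlap. The second was lost without YFPneg SGC0649 library 61 or 62 and with only the groups compared, with values of 0.25 to 0.34 over the alternatives. In YFPneg cells Hdac4 rose by 0.30 (SE 0.09, adjusted p = 0.045), at 56.0, 50.3 and 52.7 CPM against 38.6 and 47.3. Brd3 fell there by 0.24 (SE 0.07, adjusted p = 0.039), at 80.2, 84.5 and 75.2 CPM against 94.6 and 94.2. The Hdac4 call was lost without YFPneg SGC0649 library 61 or YFPneg SGC0946 library 91 and with only the groups compared. Its values were 0.16 to 0.46 over the alternatives. The Brd3 call was lost without either YFPneg SGC0649 library or without YFPneg SGC0946 library 91 or 93. It was also lost with no filter on low counts and with only the groups compared, with values of -0.28 to -0.20 over the alternatives.

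The remaining calls in YFPpos cells were Hdac5 (0.43, SE 0.14), Hdac7 (0.51, SE 0.17), Hdac10 (-0.48, SE 0.14), Sirt6 (0.31, SE 0.10), Brd2 (-0.14, SE 0.05) and Brd7 (-0.24, SE 0.08). Each was lost without YFPpos SGC0946 library 91, without its library 92 and without YFPpos SGC0649 library 63. Hdac7, Sirt6, Brd2 and Brd7 were also lost without YFPpos SGC0649 library 62, and Hdac10, Sirt6, Brd2 and Brd7 without YFPpos SGC0946 library 93. Their highest adjusted p lay between 0.095 and 0.19. The Brd2 and Brd7 calls were lost as well with the DESeq2 test, with DESeq2 size factors and with no filter on low counts. That of Brd2 was also lost with only the groups compared. In Hdac5 and Hdac7, SGC0649 library 63 was the lowest of its group, at 31.6 CPM against 46.9 and 49.6, and at 168 against 263 and 295.

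**Figure D5:**
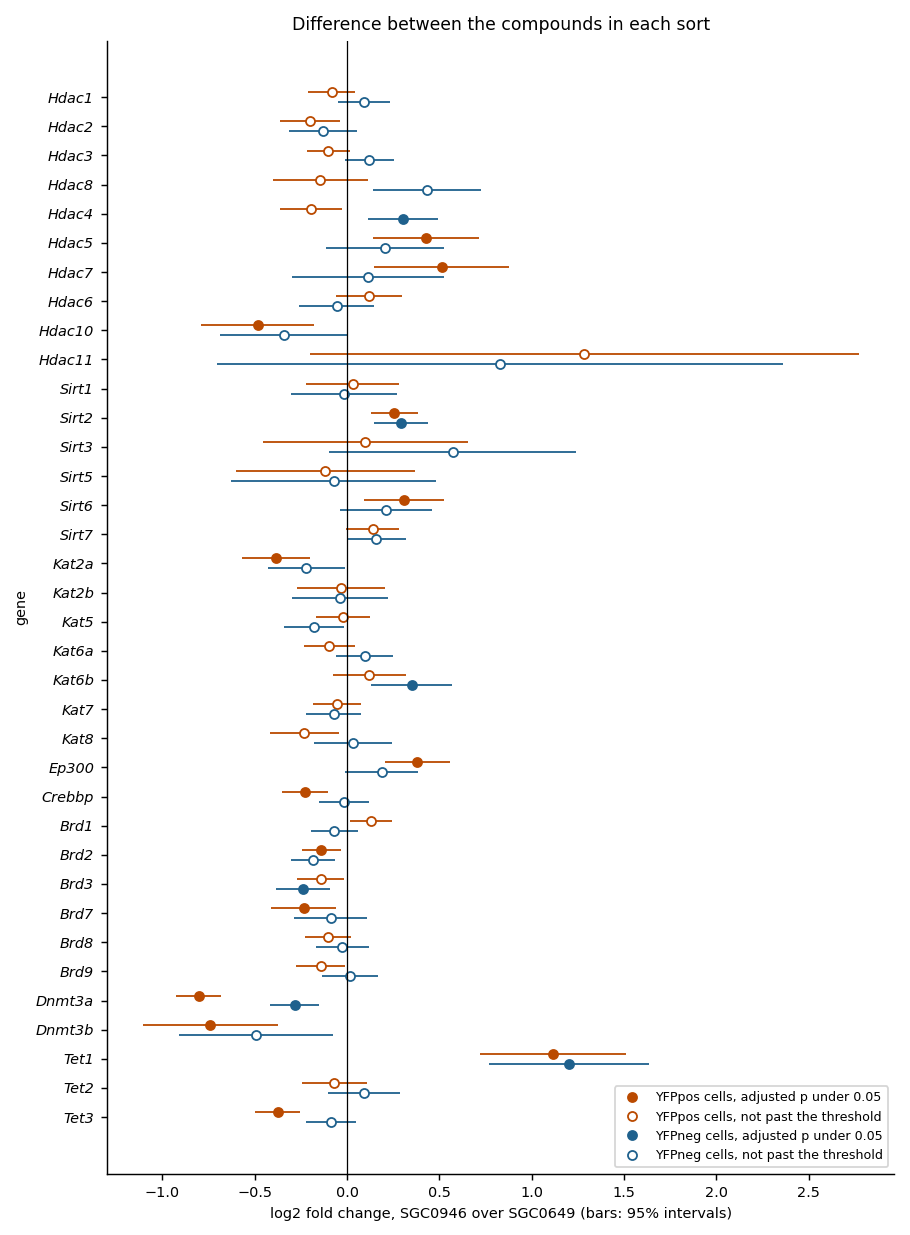
Log2 fold change of SGC0946 over SGC0649 in YFPpos (orange) and YFPneg cells (blue) for the 36 tested genes by role, with 95% intervals from the model. Filled points have an adjusted p under 0.05. Tet1 lies to the right in both sorts, at 1.11 and 1.20, and the Dnmt3a intervals, -0.92 to -0.68 and -0.42 to -0.15, do not overlap.

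Whether the inhibitor's effect differed between sorts was tested as the interaction, in which the YFPneg change is taken from the YFPpos change. It was called for 1 of the 36 genes, as lower, with DESeq2 and limma-voom calling 2. Of all genes tested 1.15% were called, 0.259% as higher and 0.891% as lower. That gene was Dnmt3a, at -0.52 (SE 0.09, adjusted p = 0.0069, 95% interval -0.70 to -0.34). With a block by library number, edgeR did not call it (-0.43, adjusted p = 0.062). The interaction of Tet1 was -0.09, with a wide 95% interval of -0.67 to 0.50. Hdac4 was at -0.50 (SE 0.12, adjusted p = 0.055) and was not called by edgeR, while DESeq2 and limma-voom called it. It stood at 42.0 to 46.5 CPM with SGC0649 and 38.7 to 39.4 with SGC0946 in YFPpos cells, opposite in direction to YFPneg cells. The NK cell marker sum was 11.5 to 13.3 CPM in YFPpos SGC0946, 3.73 to 7.94 in YFPpos SGC0649 and up to 3.63 in the YFPneg libraries. Klre1, at 6.62 to 7.27 CPM against 1.77 to 3.86, and Klri2, at 4.48 to 5.32 against 1.53 to 3.38, made up most of that difference between the YFPpos groups. Klra7, Ncr1 and Klrb1c were each at most 0.596 CPM in the YFPpos libraries, with Ncr1 at 0 with SGC0946, and the part of these markers in the results was not tested.

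Genes of proteins that work with these enzymes were counted in 4 lists. In YFPpos SGC0649 against naive cells, 7 of 27 genes of deacetylase corepressor complexes rose and 16 fell, where 42.6% of all genes tested rose and 37.3% fell. Chd3, a remodeller of the NuRD complex, fell by 2.33 (SE 0.07), Arid4a of the SIN3 complex fell by 1.60 (SE 0.07), and the histone chaperone gene Rbbp7 rose by 1.75 (SE 0.07). Of 40 partners of acetyltransferases 4 rose and 26 fell, to be read against the same shares. Hat1, which acetylates newly made histone H4, rose by 2.37 (SE 0.08), while Atxn7 of the SAGA complex fell by 1.53 (SE 0.06) and Epc1 of the TIP60 complex by 1.94 (SE 0.08).

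Of 23 other bromodomain genes 7 rose and 14 fell, among them Smarca2, a SWI/SNF ATPase gene, by 2.29 (SE 0.06) and Brwd1 by 2.03 (SE 0.06). Atad2, linked to replicating chromatin, rose by 1.76 (SE 0.06). Of 19 genes tied to DNA methylation 8 rose and 9 fell, shares near those of all genes. Uhrf1, which guides maintenance methylation at replication, rose by 6.34 (SE 0.08) and Gadd45g by 7.51 (SE 0.12), while Zbtb4, a gene for a reader of methylated DNA, fell by 2.47 (SE 0.10). In YFPneg SGC0649 against naive cells the counts were 5 higher and 15 lower, 5 and 23, 7 and 13, and 8 and 9 for the 4 lists in the same order, where 36.4% of all genes were higher and 32.6% lower.

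Between sorts with SGC0649, 5 corepressor genes were higher and 6 lower in YFPpos cells, where 23.9% of all genes were higher and 21.3% lower. Among acetyltransferase partners 2 were higher and 15 lower. The smallest p belonged to Ncoa2 (-0.75, SE 0.07), Ncoa3 (-0.62, SE 0.06) and Kansl1 (-0.57, SE 0.06), genes of coactivators and a scaffold of the MOF complex. Among other bromodomain genes 2 were higher and 15 lower, and by p the first were Smarca2 (-0.74, SE 0.07), Ash1l (-0.91, SE 0.09) and Phip (-0.89, SE 0.09). Among DNA methylation genes 3 were higher and 4 lower. With SGC0946 the counts were 4 and 11, 2 and 18, 3 and 17, and 5 and 5 in the same order, where 26.9% of all genes were higher and 27.8% lower. The lists' medians with SGC0649 were -0.06, -0.13, -0.30 and -0.12, against 0.04 over all genes.

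Between compounds in YFPpos cells, 1 corepressor gene was higher with SGC0946 and 12 lower, where 12.1% of all genes were higher and 15.7% lower. By p the first were Chd3 at -0.62 (SE 0.07), Kdm1a at -0.29 (SE 0.05) and Rbbp7 at -0.28 (SE 0.06). Of acetyltransferase partners 0 were higher and 9 lower by edgeR, with Ncoa3 at -0.40 (SE 0.05), Hat1 at -0.42 (SE 0.08) and Ncoa2 at -0.30 (SE 0.06). Of other bromodomain genes 3 were higher and 2 lower, and of DNA methylation genes 3 and 2, with Zbtb38 at 1.00 (SE 0.17) and Idh1 at 1.08 (SE 0.21). The count of 0 higher partners held at an unadjusted p under 0.05. In YFPneg cells the 4 lists held 2, 4, 0 and 1 calls in the same order by edgeR, where 8.63% of all genes were called. At an unadjusted p under 0.05 other bromodomain genes held 3 higher and 4 lower. Rbbp7 (-0.44, SE 0.07) and Chd3 (-0.44, SE 0.08) were the calls in the first and Dnmt1, the maintenance methyltransferase gene, the one in the last at -0.23 (SE 0.06). By edgeR the interaction was called for Ncoa3 (-0.37, SE 0.08) and Atad2b (-0.54, SE 0.12) and for no other gene of the 4 lists. Of all genes tested 1.15% were called. At an unadjusted p under 0.05, 6 corepressor genes, 6 acetyltransferase partners and 1 other bromodomain gene were lower, and 2 DNA methylation genes were higher.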

How the data were processed

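Per the submitters' processing notes, reads were counted with featureCounts on GRCm38. The authors deposited raw whole-number counts per gene, reverse-strand and for protein-coding genes per the file name and its biotype column, with no normalization. The notes also name edgeR and limma. The release of the annotation and the aligner were not given in the sources used here. All 14 libraries entered 1 model in edgeR 4.0.16 (R 4.3.3), with TMM factors, filterByExpr by group, a coefficient for each group, the quasi-likelihood F test and Benjamini-Hochberg adjustment over 12343 genes. The common dispersion was 0.00831. Each standard error is the size of a log2 fold change divided by root F, and 95% intervals come from the model. Exon lengths and positions are from GENCODE M21 (GRCm38). Code was tested on simulated data.

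Values are given for the 4 genes with the smallest p in each comparison and for up to 8 called genes in the compound comparisons and the interaction, plus up to 3 genes of each further list. Other genes are given by their fold changes or ranges, and some were chosen for description after their values were seen. Members, lists, tests and alternatives were chosen with earlier results of these data known. Alternatives were DESeq2 1.42.0 (test and size factors), limma-voom (limma 3.58.1), no filter, only the groups compared, blocks by title number or its last digit and leaving out each library. The study's design text calls the libraries biological replicates. Nothing else says that they came from separate animals or cultures, so p-values measure the spread between these libraries, which may be in part technical. Replicate libraries differed by more than counting noise, and each was counted as its own library. That check cannot tell separate cultures from separate preparations of the same sample.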

Additional observations from a re-analysis of the deposited data

Results flagged for a closer look

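The effect of SGC0946 on Dnmt3a differed between the sorts, by -0.52 on the log2 scale (YFPpos minus YFPneg) in edgeR's interaction test, with an adjusted p of 0.0069. Dnmt3a was lower with SGC0946 within each sort, which does not itself bear on a difference between the sorts. All 3 YFPpos SGC0946 libraries were below all 3 YFPpos SGC0649 libraries. The 3 YFPneg SGC0946 libraries were below both YFPneg SGC0649 libraries. The interaction value lay between -0.56 and -0.43 over the alternatives run. With a block by library number, edgeR no longer called it (adjusted p = 0.062).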

How the results depend on the processing

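Of the 97 calls on the 36 tested genes, 72 were kept under every alternative run, 25 were lost under at least 1 and 0 changed sign. Of 155 tests not called, 29 passed the threshold under at least 1 alternative. Between compounds in YFPneg cells, 1065 genes were called, with 1615 by DESeq2 and 199 when only the groups compared were fitted. Of the 36 genes, 6 were called there and 1, Tet1, with only those groups. The interaction was called for 142 genes, with 301 by DESeq2 and 56 with only those groups, and for 1 of the 36, with 2 by DESeq2 and 2 by limma-voom, the second being Hdac4. Leaving out 1 library gave 335 to 1520 genes and 2 to 7 of the 36 in the YFPneg compound comparison. It gave 61 to 241 and 1 to 2 in the interaction, and 1886 to 3449 (3424 with all libraries) and 7 to 15 (14) in the YFPpos compound comparison. The lowest count in YFPneg cells came without YFPneg SGC0649 library 62, where 1 control library is assumed to vary like the other groups. The causes were not tested. Deviations of same-numbered libraries of the sorts from their group means were positively correlated in all 5 pairs (0.036 to 0.22, 3 over 0.1). The numbers were not taken as pairs in the main fit. These correlations do not settle whether same-numbered libraries share a culture, and the labels do not say. With a replicate block by title number, the interaction was called for 0 of the 36 genes (Dnmt3a -0.43, adjusted p = 0.062 by edgeR), and YFPpos against YFPneg cells for 11 with SGC0649 and 16 with SGC0946. It also ended the SGC0649 calls of Tet1 and Tet2 there. A block by the last digit left the interaction at 1. DESeq2 size factors moved the median of all genes by at most 0.05.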
